A study of Mus musculus with 6 samples.

Results

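The NRF2 antioxidant pathway was followed through 10 genes, *Nfe2l2*, *Keap1*, *Gclc*, *Gclm*, *Nqo1*, *Hmox1*, *Srxn1*, *Txnrd1*, *Slc7a11* and *Gpx2*, on single-color mouse gene expression arrays of esophageal and stomach organoids. These genes were listed by symbol, and every non-control probe that carries one of these symbols was taken, which gave 11 probes of the 55681 on each array and 10 of the 34298 gene names. Each gene had 1 probe except *Hmox1*, which had 2. Organoids were grown from the esophagus and from the stomach corpus of the same 3 mice, numbered 1, 2 and 4, and RNA was taken at passage 0 on day 8, or on day 7 in the case of the mouse 4 stomach. All 6 cultures are labelled as controls. The labels give no genotype, strain or age for the mice, and the methods of the study, which used several mouse lines, name wild-type C57BL/6 females without tying them to these arrays. Both media held N-acetyl-L-cysteine, a cysteine source and antioxidant, together with EGF, noggin, FGF10, nicotinamide, a TGF-β receptor kinase inhibitor and a ROCK inhibitor. The stomach medium also held WNT3A and R-spondin1 conditioned media and gastrin, and the esophagus medium held forskolin. Esophageal cultures started from dissociated single cells and stomach cultures from whole glands released with EDTA and DTT, a thiol reductant, so tissue, medium and starting material changed together and cannot be told apart.

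NRF2, the product of *Nfe2l2*, is a transcription factor that turns on genes for antioxidant defense and detoxification. KEAP1 binds it and presents it to a CUL3 ubiquitin ligase for degradation, and oxidants or electrophiles that modify cysteines of KEAP1 let NRF2 escape, pair with a small MAF protein and bind antioxidant response elements (AREs) near its target genes. The control acts mainly on the protein, so the mRNA of *Nfe2l2* is not a readout of NRF2 activity. In the mouse esophagus and forestomach, loss of *Keap1* is known to cause hyperkeratosis, and the pathway is often mutated in human esophageal squamous carcinoma. Its targets fall into glutathione synthesis (*Slc7a11*, *Gclc*, *Gclm*), peroxide and thiol reduction (*Gpx2*, *Txnrd1*, *Srxn1*), and quinone and heme handling (*Nqo1*, *Hmox1*).

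The promoters of the members are shown first because all of these genes are studied for ARE control. RefSeq windows on GRCm38.p6, from 250 bases before to 50 bases after a transcription start, were held for 8 of the 10 genes, in 10 windows. The ARE core TGACNNNGC was searched on both strands, as was TGAGTCA, the AP-1 element. On the other strand this element reads TGACTCA, and it overlaps the searched ARE core where GC follows TGACTCA. The ARE core was found in 4 of the 10 windows, those of *Nfe2l2*, *Gclm*, *Srxn1* and 1 start of *Txnrd1*, against 12.4% of all 32851 promoter windows. TGAGTCA was found in the *Srxn1* window, at 2 positions, against 5.2% of all windows. The stretches that hold matches before the start are given 5′ to 3′ on the strand of the gene, with matched letters in capitals. In *Gclm* and *Txnrd1* the capitals are the ARE core on the opposite strand. The *Srxn1* stretch shows TGAGTCA, since the only match of TGACNNNGC in that window lies after the start. GC follows the second TGAGTCA of this stretch, but TGAGTCAGC has G where the searched core has C. That form was not searched as an ARE core, so an element of that kind before the start was not counted.
Nfe2l2, chr2:75704854-75704913, minus strand, 250 to 191 bases before the start: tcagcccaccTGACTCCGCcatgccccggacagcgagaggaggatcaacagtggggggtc
Gclm, chr3:122245392-122245451, plus strand, 165 to 106 bases before the start: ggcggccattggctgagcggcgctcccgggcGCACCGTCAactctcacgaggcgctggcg
Srxn1, chr2:152105409-152105508, plus strand, 115 to 16 bases before the start: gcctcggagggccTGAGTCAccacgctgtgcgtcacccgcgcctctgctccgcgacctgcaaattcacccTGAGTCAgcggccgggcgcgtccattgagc
Txnrd1, chr10:82859086-82859145, plus strand, 120 to 61 bases before the start: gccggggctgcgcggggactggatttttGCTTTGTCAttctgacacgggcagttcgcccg
No match of the ARE core lay in the windows held for *Keap1*, *Nqo1*, *Slc7a11* and *Gpx2*, and sequence outside the windows was not searched. These matches are descriptions of letters in short windows and were not tested for binding.

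Values below are the log2 values that the authors deposited after background correction and quantile normalization, and every difference is esophagus minus stomach on that scale. All 11 probes were well above background on all 6 arrays. The arrays carried their labels: all 6 squamous markers of the list (among them *Krt5*, *Krt13* and *Sox2*) had a probe higher in the esophagus, although 1 of the 4 *Trp63* probes was higher in the stomach, and all 8 columnar gastric markers (among them *Krt8*, *Tff1* and *Gkn2*) were higher in the stomach. The 8 fibroblast and smooth muscle markers each fell to background on at least 1 array of each tissue. Per array, 45.5% to 51.1% of spots were well above background and none was saturated. In whole cultures, fewer cells of a type and less RNA per cell cannot be told apart.

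At an adjusted p under 0.05 (limma, Benjamini-Hochberg over all 55681 probes), 3 member genes were higher in esophageal organoids, *Slc7a11*, *Gclm* and *Nqo1*, and 1 was higher in stomach organoids, *Txnrd1*. The other 6 genes, which include *Nfe2l2* and *Keap1* themselves, did not pass. These 4 of 11 probes compare with 12.2% of all probes called (5.94% higher in the esophagus, 6.22% in the stomach), and with 20.4% of the 21391 probes that, like the members, were well above background on all 6 arrays (10.7% and 9.67%). The 3 values of one tissue lay above the 3 of the other for the same 4 probes, against 28.6% of probes with 6 values (15.2% with the esophagus above, 13.4% with the stomach above) and 40.1% of those above background on all arrays. The median difference of the member probes was 0.95, where it was 0.02 over all probes and 0.10 over those above background on all arrays.

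**Figure D1:**
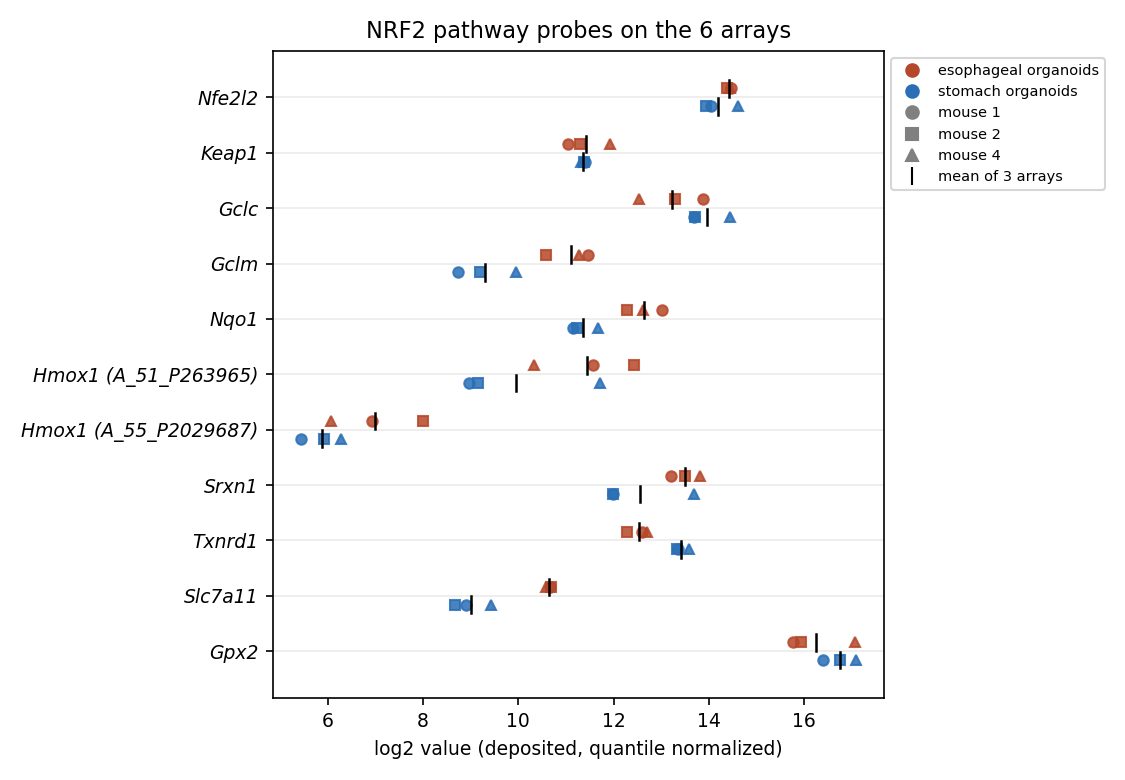
Deposited log2 value (horizontal axis) of each member probe on the 3 esophageal (red) and 3 stomach (blue) arrays, with 1 marker shape per mouse and a black line at the mean of 3 arrays. The tissues are apart for *Gclm*, *Nqo1*, *Txnrd1* and *Slc7a11* and overlap for the other 7 probes, and levels are comparable within a row, not between rows.

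No difference passed the test for the transcription factor or its sensor. *Nfe2l2* (NM_010902, whose probe lies on mm9 chromosome 2 from 75513771 to 75513830) read 14.46, 14.38 and 14.45 in the esophagus and 14.05, 13.93 and 14.62 in the stomach of mice 1, 2 and 4. The stomach array of mouse 4 was the highest of all 6, so the tissues overlapped. The difference was 0.23 (standard error 0.20, 95% interval -0.23 to 0.70, limma adjusted p = 0.569), and without stomach replicate 4 it was 0.44 (standard error 0.15, limma adjusted p = 0.124), and without stomach replicate 2 it was 0.10 (limma adjusted p = 0.875). *Keap1* (NM_016679, chromosome 9 from 21035292 to 21035732, an interval longer than the probe) read 11.05, 11.30 and 11.92 in the esophagus and 11.40, 11.39 and 11.32 in the stomach. Its esophageal values enclosed those of the stomach, and the difference was 0.06 (standard error 0.23, 95% interval -0.47 to 0.59, limma adjusted p = 0.924), with 0.24 without esophagus replicate 1 and -0.19 without esophagus replicate 4. The intervals leave room for differences of up to 0.70 for *Nfe2l2* and 0.59 for *Keap1*. Of 15286 probes of other named genes, those nearest to *Nfe2l2* in their centered values over the 6 arrays measured *Cltc*, which encodes the clathrin heavy chain, *Rad21*, a cohesin subunit, and *Gtf2a2*, a subunit of transcription factor TFIIA, with root mean square differences of 0.04, 0.05 and 0.06 on the log2 scale. These genes were picked as the closest of many probes over 6 arrays, and a link to *Nfe2l2* was not tested.

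Of the glutathione synthesis genes, *Slc7a11* and *Gclm* were higher in the esophagus and *Gclc* did not pass the test. *Slc7a11* (NM_011990, chromosome 3 from 50169700 to 50169759) encodes the cystine-glutamate exchanger xCT, which brings in the cysteine of glutathione. It read 10.67, 10.68 and 10.57 in the esophagus and 8.90, 8.68 and 9.44 in the stomach, with all esophageal arrays above all stomach arrays. The difference of 1.64 (standard error 0.21, limma adjusted p = 0.00174), or 3.11-fold, had the lowest adjusted p among the members. *Slc3a2*, the heavy chain that carries xCT to the membrane, read 15.09, 15.56 and 15.33 in the esophagus and 13.81, 13.98 and 15.49 in the stomach, a difference of 0.90 (limma adjusted p = 0.247). Its stomach array of mouse 4 lay within the esophageal range, and without that array the difference was 1.43 (limma adjusted p = 0.00381). *Gclm* (NM_008129, chromosome 3 from 121962174 to 121964809, an interval longer than the probe) encodes the modifier subunit of glutamate-cysteine ligase, the rate-limiting enzyme of glutathione synthesis. It read 11.47, 10.57 and 11.28 in the esophagus and 8.75, 9.20 and 9.96 in the stomach, again without overlap, a difference of 1.81 (standard error 0.35, limma adjusted p = 0.0129). *Gclc* (NM_010295, chromosome 9 from 77641296 to 77641355), the catalytic subunit of that enzyme, had values of 13.87, 13.29 and 12.54 in the esophagus and 13.69, 13.72 and 14.44 in the stomach, a difference of -0.72 (standard error 0.36, 95% interval -1.54 to 0.11, limma adjusted p = 0.281). The tissues overlapped because the esophagus of mouse 1 lay above the stomach arrays of mice 1 and 2, while in mouse 4 the difference was -1.91. With 1 array left out the difference ran from -0.37 without esophagus replicate 4 (limma adjusted p = 0.545) to -1.04 without esophagus replicate 1 (limma adjusted p = 0.0915). No test compared *Gclc* with *Gclm*.

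Among the genes for quinone and heme handling, *Nqo1* rose in the esophagus and *Hmox1* depended on the array. *Nqo1* (NM_008706, chromosome 8 from 109912440 to 109912499) encodes a quinone reductase and is the usual reporter of NRF2 activity. It read 13.02, 12.28 and 12.62 in the esophagus and 11.16, 11.24 and 11.67 in the stomach, without overlap, a difference of 1.28 (standard error 0.23, limma adjusted p = 0.00968), or 2.43-fold. *Hmox1* (NM_010442) encodes the inducible heme oxygenase, and its brighter probe (A_51_P263965, chromosome 8 from 77624207 to 77624266) read 11.57, 12.43 and 10.34 in the esophagus and 8.96, 9.17 and 11.72 in the stomach. In mice 1 and 2 the esophagus was higher by 2.61 and 3.27, and in mouse 4 the difference was -1.38. The fitted difference of 1.5, with a standard error of 0.79, missed the threshold (limma adjusted p = 0.312). The dimmer probe (A_55_P2029687, chromosome 8 from 77620797 to 77620856) read 6.93, 8.0 and 6.07 in the esophagus and 5.44, 5.93 and 6.28 in the stomach, with the same sign in each mouse as the brighter one and a difference of 1.12 (standard error 0.46, limma adjusted p = 0.189), which was 0.62 without esophagus replicate 2 (limma adjusted p = 0.386). Because *Hmox1* is also high in macrophages, immune genes were read beside it. The summed linear signal of the 6 immune genes read was 4401 to 28807 in the esophagus and 5800 to 7926 in the stomach, and without *Cd68* it was 607 to 833 and 2666 to 4656. In that list, 1 gene (*Cd14*) was called, higher in the stomach, *Ptprc* and *Adgre1* were not well above background on any array, and the brighter *Cd68* probe read 14.77, 12.94 and 11.80 in the esophagus and 11.04, 11.22 and 12.36 in the stomach. The 2 *Csf1r* probes above background in the esophagus differed by -0.18 and -0.60 (limma adjusted p = 0.612 and 0.671). The second differed by -0.96, -1.52 and 0.67 in mice 1, 2 and 4. Without stomach replicate 4 it was called higher in the stomach (-1.44, limma adjusted p = 0.0334). The part of *Cd68*-expressing cells in the *Hmox1* values was not tested.

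Of the peroxide and thiol reductases, *Txnrd1* passed the test and *Srxn1* and *Gpx2* did not. *Txnrd1* (NM_001042523, chromosome 10 from 82360230 to 82360289) encodes cytosolic thioredoxin reductase, a selenoprotein that returns thioredoxin to its reduced form. It was the one member called lower in the esophagus, at 12.60, 12.28 and 12.69 against 13.36, 13.32 and 13.59 in the stomach, without overlap, a difference of -0.90 (standard error 0.17, limma adjusted p = 0.0113). With the software's processed signal and 75th percentile scaling this call was lost (-0.62, limma adjusted p = 0.302). *Srxn1* (NM_029688, chromosome 2 from 151937009 to 151937068), whose TGAGTCA matches are printed above, encodes sulfiredoxin, which repairs over-oxidized peroxiredoxins. It read 13.20, 13.50 and 13.81 in the esophagus and 11.99, 11.99 and 13.68 in the stomach. The stomach arrays of mice 1 and 2 lay below every esophageal array and that of mouse 4 lay among them, and the difference of 0.95 (standard error 0.45) missed the threshold (limma adjusted p = 0.251). *Gpx2* (NM_030677, chromosome 12 from 77893402 to 77893461), the glutathione peroxidase of gastrointestinal epithelium and also a selenoprotein, read 15.77, 15.93 and 17.06 in the esophagus and 16.40, 16.75 and 17.09 in the stomach. Its tissues overlapped through the esophagus of mouse 4, and the difference was -0.49 (standard error 0.35, 95% interval -1.30 to 0.32, limma adjusted p = 0.477). With 1 array left out it ran from -0.25 without esophagus replicate 1 (limma adjusted p = 0.761) to -0.89 without esophagus replicate 4 (limma adjusted p = 0.0543).

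**Figure D2:**
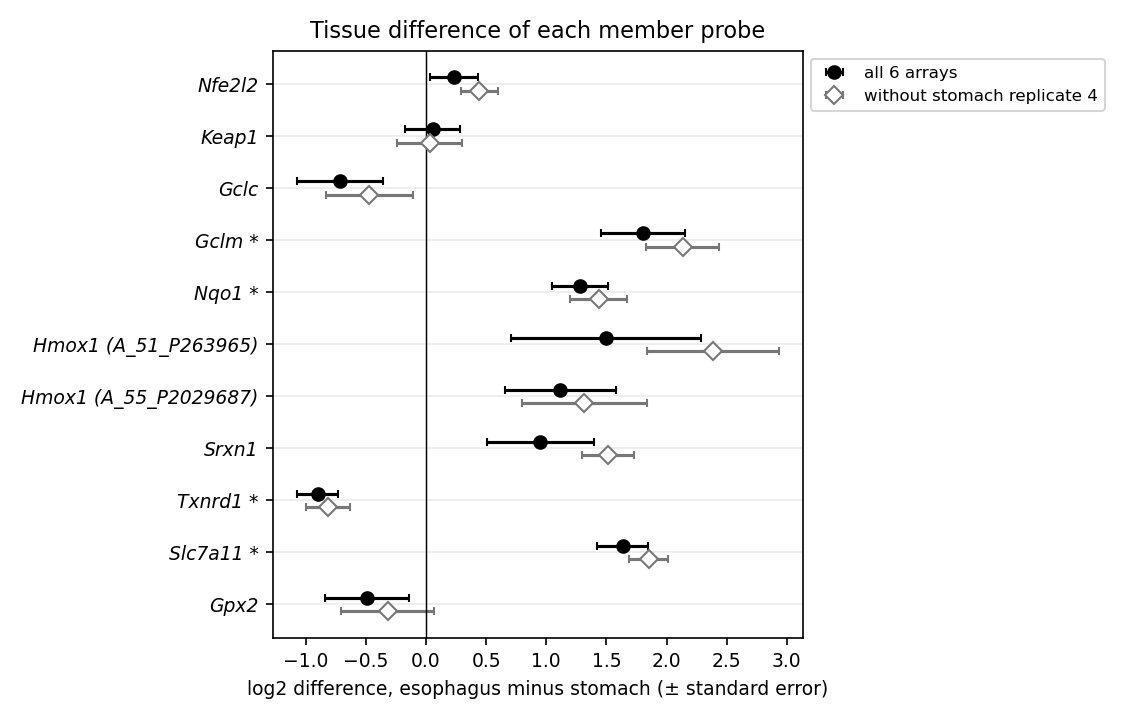
Fitted log2 difference, esophagus minus stomach, with its standard error for each member probe, over all 6 arrays (filled circles) and without stomach replicate 4 (open diamonds). An asterisk marks an adjusted p under 0.05 over all 6 arrays, and *Srxn1* and the brighter *Hmox1* probe move the most, away from 0, when that array is left out, to 1.51 and 2.38.

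The stomach organoids of mouse 4, taken a day earlier than the others, were high in these genes. Their array was the highest of the 3 stomach arrays for 10 of the 11 member probes, all but *Keap1*, where it was the highest for 45.2% of probes above background on all arrays. Against the mean of stomach replicates 1 and 2, it was higher by 2.66 on the brighter *Hmox1* probe, 1.69 for *Srxn1*, 0.98 for *Gclm*, 0.74 for *Gclc*, 0.65 for *Slc7a11* and 0.63 for *Nfe2l2*. The median over the member probes was 0.63, and over probes above background on all arrays it was 0.04, with a 95th percentile of 0.88. With this array left out, 6 member genes passed, *Srxn1* (1.51, limma adjusted p = 0.00459) and the brighter *Hmox1* probe (2.38, limma adjusted p = 0.0327) in addition to the 4 named above, where 17.7% of all gene names and 13.3% of all probes did. By an unadjusted p under 0.05 with at least a 1.5-fold change over all 6 arrays, 5 member probes were called, where 18.1% of all probes were. Markers of cell types also moved on this array. Against the mean of stomach replicates 1 and 2, the surface mucous cell mucin *Muc5ac* differed by -2.08, the gland mucin *Muc6* by 1.93, and the squamous differentiation gene *Sprr1a* by 2.50. The medians over the lists were -0.19 for the 8 columnar markers, 0.32 for the 6 squamous markers, 0.52 for the 6 squamous differentiation genes, of which *Sprr1a* was the highest, 0.01 for fibroblast and smooth muscle markers, 0.07 for immune markers and 0.37 for endothelial markers. The macrophage gene *Cd68*, read beside *Hmox1* above, was higher on this array by 1.23 and 0.81 on its 2 probes, while the other myeloid genes of that list had differences of -0.83 for *Cd14* and, on the 2 *Csf1r* probes above background in the esophagus, -0.22 and -2.50. The part of cell make-up in the member values was not tested. Nothing replicates the array of the mouse 4 stomach, so day of harvest, mouse, cell make-up and array cannot be told apart. The esophageal array of mouse 4 was apart in some squamous differentiation genes and in the squamous marker *Krt4*. It was the only array of the series on its slide, and the other 5 shared a slide. For this array, slide, mouse and culture cannot be told apart. Against the mean of esophagus replicates 1 and 2, the cornified envelope genes *Lor*, *Sprr1b* and *Sprr1a* differed by -5.31, -3.25 and -3.16, while *Ivl* differed by 0.42 and 0.72 on its 2 probes, *Krt10* by -0.84 and 0.25, and *Sprr2a1*, which was not above background in the esophagus, by -0.35. Of the squamous markers, *Krt4* differed by -1.39, *Krt13* by -0.76 and -0.31 on its 2 probes, and *Krt14* by -0.24. The 4 *Trp63* probes differed by -0.79, -0.28, 0.04 and 0.11, the 2 *Krt5* probes by 0.01 and 0.03, and *Sox2* by 0.07. The *Cd68* probes differed by -2.06 and -1.09, those of *Csf1r* by 0.11 and -0.59, *Cd14* by 0.55 and *Cd3e* by 0.25. Of the member probes, 4 lay outside the 5th to 95th percentile of probes above background on all arrays (-0.91 to 0.88), the brighter and the dimmer *Hmox1* probe at -1.66 and -1.40, *Gclc* at -1.04 and *Gpx2* at 1.21, and the other 7 ranged from -0.10 for *Slc7a11* to 0.74 for *Keap1*. Of the 6 squamous differentiation genes, 3 were called toward the esophagus and 1 toward the stomach, and their summed linear signal ranged from 17626 to 237331 in the esophagus and from 12589 to 75949 in the stomach. Their part in the member values was not tested. Leaving out esophagus replicate 4, which also leaves the arrays of a single slide, gave a call for the dimmer *Hmox1* probe (1.58, limma adjusted p = 0.036). Leaving out stomach replicate 1 or 2 took *Gclm* (limma adjusted p = 0.0526 and 0.0633) and *Nqo1* (limma adjusted p = 0.054 and 0.052) just past the threshold, while *Slc7a11* and *Txnrd1* stayed called with each of the 6 arrays left out in turn, as did 55.7% of the 6770 probes called.

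**Figure D3:**
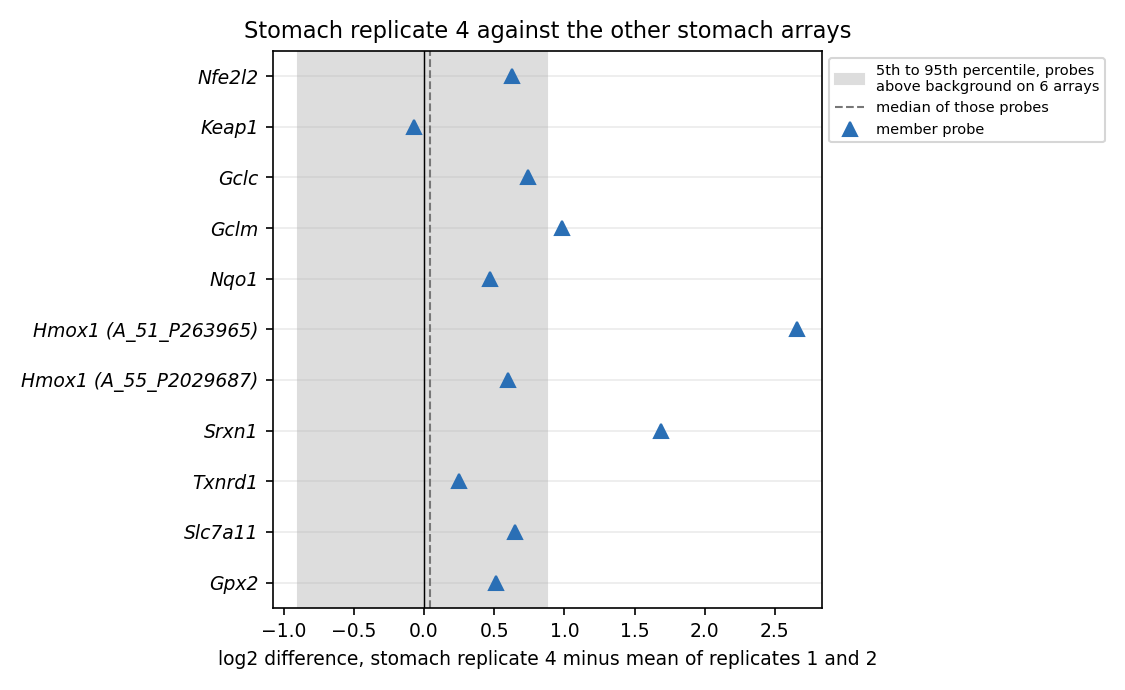
Log2 value of stomach replicate 4 minus the mean of stomach replicates 1 and 2 for each member probe (triangles), with the 5th to 95th percentile (gray, -0.90 to 0.88) and the median (dashed, 0.04) of the 21391 probes well above background on all 6 arrays. The probes of *Gclm*, *Srxn1* and the brighter *Hmox1* probe lie beyond the gray band.

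To set the members in their pathway, 86 further genes in 9 lists were read in the same fit through 126 probes. A called probe placed 8 of them toward the esophagus and 12 toward the stomach, and 66 were not called, where 7.88% and 8.33% of all gene names had a called probe in each direction. The NRF2 partners, relatives and regulators had no gene higher in the esophagus and 4 of 15 higher in the stomach, with a median of -0.21. These were *Nfe2*, an NRF2 relative that stayed at background on every esophageal array and so was higher in stomach organoids by at least 2.06-fold, *Nfe2l3*, another relative (-1.93, standard error 0.48, limma adjusted p = 0.0377), *Bach2*, a repressor that competes for MAF partners (-1.73, standard error 0.26, limma adjusted p = 0.00392), and the acetyltransferase *Crebbp* (-1.08, standard error 0.28, limma adjusted p = 0.0416). The *Nfe2l3* and *Bach2* probes were well above background on 2 and 1 of the 3 esophageal arrays. Other probes of *Nfe2l3* (-0.81) and *Crebbp* (0.24) did not pass, and the other *Bach2* probe stayed at background on all 6 arrays. The *Nfe2l3* call was lost with offset 50 in the background correction (limma adjusted p = 0.0697) and on the arrays of the single slide (limma adjusted p = 0.0967). The *Crebbp* call was lost with the mouse as a block (limma adjusted p = 0.0526), with the 75th percentile scaling (limma adjusted p = 0.17), with offset 50 (limma adjusted p = 0.068) and on the single slide (limma adjusted p = 0.0819), and held with 1 of the 6 arrays left out. *Cul3*, the small MAF genes and *Bach1* were among the 11 not called.

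In glutathione synthesis, recycling and use, 1 of 14 genes was called toward the esophagus and 2 toward the stomach, with a median of -0.41. *Chac1*, which degrades glutathione and is a target of the stress factor ATF4, was higher in the esophagus by 2.93 (standard error 0.66, limma adjusted p = 0.0253). Its difference was 4.45, 3.82 and 0.52 in mice 1, 2 and 4, and the call was lost with the mouse as a block (limma adjusted p = 0.0614), with offset 50 in the background correction (limma adjusted p = 0.0697) and with a trended variance (limma adjusted p = 0.0745). The 2 genes higher in the stomach changed by less than 2-fold and are named after their values were seen, glutathione synthetase *Gss* (-0.97, limma adjusted p = 0.0326) and the lipid peroxide reductase *Gpx4* (-0.93, limma adjusted p = 0.0174). With the 75th percentile scaling neither passed (limma adjusted p = 0.21 for *Gss* and 0.381 for *Gpx4*).

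Among thioredoxins and peroxiredoxins, 2 of 13 genes were called toward the esophagus and 1 toward the stomach, with a median of 0.07. The thioredoxin reductases differed in direction. The mitochondrial enzyme *Txnrd2* was lower in the esophagus by -1.32 (standard error 0.16, limma adjusted p = 0.00137) on its probe above background, like *Txnrd1*, and *Txnrd3* was higher by 1.44 (standard error 0.31, limma adjusted p = 0.0228), a call lost with offset 50 in the background correction (limma adjusted p = 0.0512). *Sesn1*, a stress-inducible sestrin, was higher in the esophagus by 1.39 (standard error 0.21, limma adjusted p = 0.00419). None of the 6 peroxiredoxin genes was called. Of the superoxide dismutases and catalase, *Cat* was higher in the esophagus on 1 probe (1.57, limma adjusted p = 0.00275) and not on the brighter one (0.51, limma adjusted p = 0.193), and the 5 genes of selenocysteine insertion were not called.

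**Figure D4:**
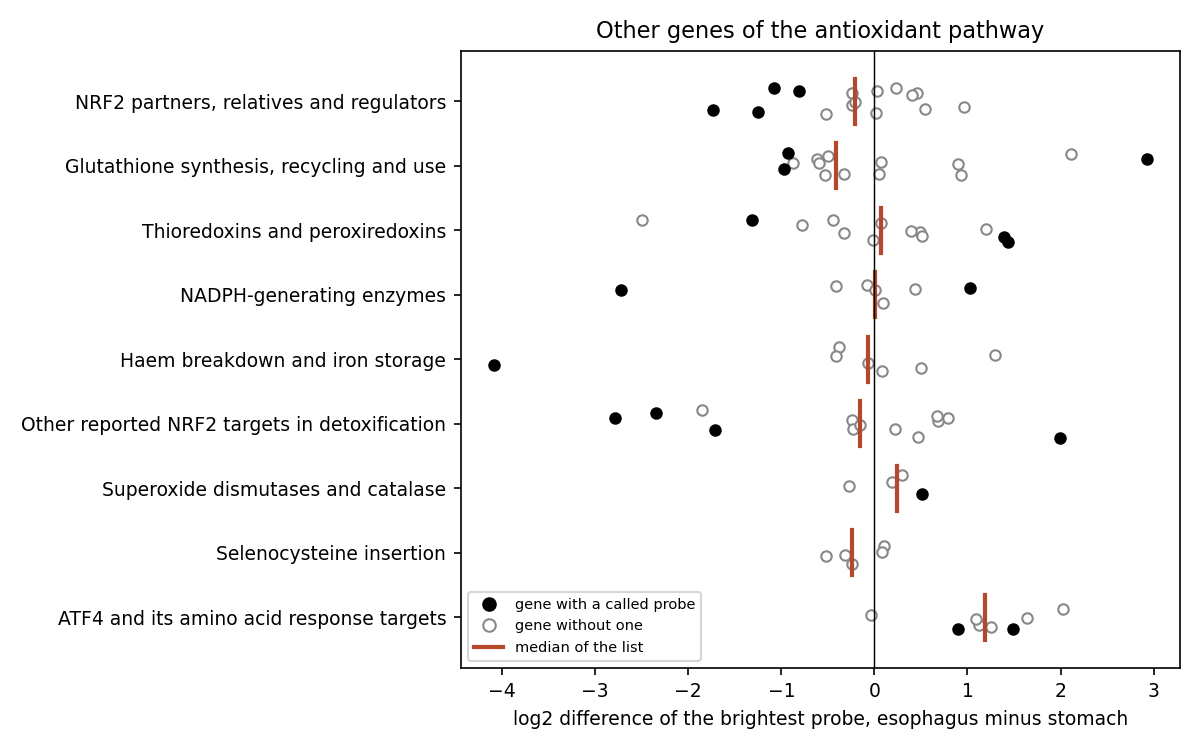
Log2 difference, esophagus minus stomach, of the brightest probe of each of 86 genes in 9 lists, with filled points for genes that have a called probe (not always the brightest), open points for the others and a red line at the median of each list. Called genes lie on both sides of 0 in 4 of the lists, and the ATF4 list has the highest median, 1.19.

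Of 13 further detoxification genes, 3 were called toward the stomach and 1 toward the esophagus, and of 7 heme and iron genes, 1 was called, toward the stomach. *Slc40a1*, the iron exporter ferroportin, differed by -4.09 (standard error 0.31, limma adjusted p = 0.000102) and was well above background on 1 of 3 esophageal arrays. The carbonyl reductases *Cbr1* (-2.79, standard error 0.22, limma adjusted p = 0.000118) and *Cbr3* (-1.72, standard error 0.25, limma adjusted p = 0.00341) and the UDP-glucose dehydrogenase *Ugdh* (-2.34, standard error 0.19, limma adjusted p = 0.000131) were higher in the stomach. The aldose reductase *Akr1b3* was higher in the esophagus on both of its probes, by 2.0 and 2.07 (limma adjusted p = 0.00578 and 0.0188), the second of which lost its call with offset 50 (limma adjusted p = 0.0554) and without stomach replicate 1, 2 or 4 (limma adjusted p = 0.0714, 0.0687 and 0.0505). Of 7 NADPH-generating enzymes, 1 was called in each direction. The malic enzyme *Me1* was lower in the esophagus on all 3 of its probes, by -2.18 to -2.72, and *G6pdx*, the entry enzyme of the pentose phosphate pathway, was higher by 1.03 (standard error 0.22, limma adjusted p = 0.0202).

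The ATF4 list was read because *Slc7a11* is also a target of ATF4, the transcription factor of the amino acid response. Its 8 genes had a median of 1.19, the highest of the 9 lists, with 2 genes higher in the esophagus on 1 of their probes, *Atf4* (1.08, limma adjusted p = 0.0226) and the serine synthesis gene *Psat1* (1.65, limma adjusted p = 0.0146), and none higher in the stomach. The brighter probes of both genes did not pass (0.90 and 1.48, limma adjusted p = 0.145 and 0.0979). With the mouse as a block, the brighter *Psat1* probe passed (limma adjusted p = 0.0333) and that of *Atf4* did not (limma adjusted p = 0.202). *Shmt2* of this list also passed with the block (1.64, limma adjusted p = 0.0128, against 0.057 without it). Stomach replicate 4 was the highest stomach array for all 8 genes, with a median of 1.71 above the mean of stomach replicates 1 and 2, and *Trib3*, an ATF4 target, differed by 3.83, 3.10 and -0.86 in mice 1, 2 and 4. *Asns* of the same list differed by -0.04 (limma adjusted p = 0.928), and by 0.02 without stomach replicate 4 (limma adjusted p = 0.968). Without that array, 6 of the 8 genes were called, each of them higher in esophageal organoids, where 8.40% of all gene names were called in that direction. Of the 20 called pathway genes, 11 had a probe that stayed called with each array left out in turn, where 56.2% of the 5543 gene names called did. The other 9 fell short with at least 1 array left out, at highest adjusted p of 0.0582 for *Gpx4*, 0.0728 for *Psat1*, 0.0914 for *G6pdx*, 0.0959 for *Txnrd3*, 0.102 for *Atf4*, 0.111 for *Chac1*, 0.13 for *Gss*, 0.151 for *Nfe2l3* and 0.163 for *Crebbp* (limma).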

How the data were processed

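RNA of 6 organoid cultures, 3 per tissue, was hybridized to Agilent mouse arrays. The authors read spot intensities with Feature Extraction 11.5.1.1 and deposited them without normalization between arrays, and they also deposited background-corrected, quantile-normalized log2 values. These log2 values were used here. Normexp with offset 15 on median intensities followed by quantile normalization gave them back with a median absolute difference of 0.00433, and their empty cells were the spots marked as outliers. Spots of a probe were averaged, and lmFit and eBayes (limma 3.58.1, R 4.3.3) compared tissues on every non-control probe without a block. Labels tie arrays by mouse. Over 21372 probes together, deviations from tissue means correlated with r = 0.05, 0.03 and 0.01 within mice. These correlations do not show that the pairing is negligible for a single gene. The mouse block was an alternative, and the calls it changed are given below. Positions of probes are those of the files (mm9), and position relative to exons and UTRs was not analysed here. The brightest probe has the highest mean over tissues. A fold is given as a bound where no array of a tissue was well above background, against the higher of the probe's value and the lowest value well above background on each array. The number of arrays limits the precision. An exact permutation test of 3 against 3 arrays cannot go below p = 0.1. Members and lists were chosen with earlier results of these data known. Named are all members and list genes called with at least a 2-fold change, and the genes nearest to *Nfe2l2*. Also named, without a call, are *Cul3*, the small MAF genes and *Bach1* from the list of partners, relatives and regulators. *Slc3a2*, *Trib3*, *Asns*, *Shmt2*, *Esd* and *Txnip* were not called over all arrays without a block. They were named after their values were seen, as were *Gss* and *Gpx4*. The fit was tested on simulated data. A marker gene of the immune list is not reported here. Alternatives were 3 other background corrections or scalings, a filter on dim probes, the mouse block, a single slide, a trended variance, the thresholds of the study's methods (unadjusted p under 0.05 and 1.5-fold), probe averaging and leaving out each array.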

Additional observations from a re-analysis of the deposited data

How the results depend on the processing

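No member probe or called pathway gene changed direction with a call under any alternative run. Leaving out each array in turn, the member probes called higher in the esophagus numbered 1 to 5 (3 over all arrays), those higher in the stomach 1 to 1, the member genes called 2 to 6 (4), and the member probes without overlap 4 to 8 (4). Over the same fits 9.82% to 17.7% of all gene names were called, and 35.3% to 41.4% of all probes did not overlap, against 28.6% over all arrays. The pathway genes called higher in the esophagus numbered 3 to 16 (8) and in the stomach 8 to 12 (12), where 4.26% to 8.40% and 5.57% to 9.40% of all gene names were called. With the software's processed signal scaled by each array's 75th percentile, the median of all probes moved from 0.02 to 0.19 and *Txnrd1* lost its call (-0.62, limma adjusted p = 0.302), which left 0 member probes higher in the stomach. On the arrays of the single slide, 7 member probes did not overlap and 13 pathway genes were called higher in the esophagus, where 39.2% of all probes did not overlap and 7.36% of all gene names were called higher there. By unadjusted p under 0.05 and 1.5-fold, 18 pathway genes were called toward the esophagus and 16 toward the stomach, where 12.2% and 11.5% of all gene names were. The cause of these changes was not tested. With the mouse as a replicate block, 3 member probes were called toward the esophagus and 1 toward the stomach, as without it, where 11.1% of all probes were called. In the same fit 9 pathway genes were called toward the esophagus and 12 toward the stomach, where 7.13% and 7.64% of all gene names were. The block ended the calls of *Chac1* and *Crebbp* and no other call named here. It added *Shmt2* and *Esd* toward the esophagus and *Txnip* toward the stomach. *Shmt2* differed by 1.64 (limma adjusted p = 0.0128), and 2 *Esd* probes by 0.79 and 1.06 (limma adjusted p = 0.0302 and 0.0464). The 2 *Txnip* probes differed by -2.50 and -2.17 (limma adjusted p = 0.0169 and 0.0436). The brighter *Psat1* probe was also called with the block (limma adjusted p = 0.0333). Signal over background limited the called probes of *Nfe2*, *Nfe2l3*, *Bach2* and *Slc40a1* in the esophagus.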
